A study of Mus musculus with 6 samples.

Results

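Complement and coagulation factors are plasma proteases, cofactors and inhibitors that the liver secretes, and 39 of their genes were followed here in livers with and without SIRT1. The members were fixed as a list of gene symbols, 21 of complement and 18 of coagulation, and every array probe whose gene name in the scanner files was one of these symbols was taken. That gave 53 of the 41174 probes on the array, with at least 1 tested probe for each of the 39 genes.

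The series compared livers of male mice on chow diet, 10 weeks old, killed at 4 pm after free access to food. The SIRT1 LKO group lacked SIRT1, an NAD-dependent protein deacetylase, in the liver, and the other group was the Lox control; both were on a 95% C57BL/6 background. Each replicate joined the liver RNA of 2 mice, which makes 3 pools from 6 mice in either group, and every pool was read on its own single-colour Agilent whole mouse array. Sources used here give neither the Cre driver nor the deleted exons, and p-values measure the spread between pools.

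Complement is a cascade in which the classical, lectin and alternative pathways each build an enzyme that cleaves C3, after which C5 to C9 assemble a pore in the target membrane. Coagulation is a second cascade of serine proteases, in which thrombin turns fibrinogen into fibrin, protein C and protein S restrain the cascade, and plasmin dissolves the clot. Hepatocytes make most of these proteins; the C1q chains come mainly from macrophages such as Kupffer cells, and factor VIII from sinusoidal endothelium.

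Values are log2 intensities minus the 75th percentile of the array, each of 23592 probes was tested in limma, with p-values adjusted over them after Benjamini and Hochberg, and differences are SIRT1 LKO minus control on the log2 scale. The 75th percentile of intensity was 1005 to 1056 in 5 arrays and 1289 in LKO pool 3. Arrays came from 3 slides, 1 for all controls, another for LKO pools 1 and 2 and the last for LKO pool 3; no slide held both genotypes, and a fit with the slide as a random block made 0 calls (2632 probes at an unadjusted p under 0.05). For LKO pool 3 the deposited value table differed from the scanner file (within 1% for 0.853% of probes, where the rounded share was 99.8% in each other sample), and which of them holds this pool is not settled by the files. Scanner values were used. Many differences moved when that pool was replaced by its value table column or left out, and those values are given as "replaced" and "left out"; the plot of differences by probe shows both for every tested member probe. Sirt1 itself differed by -0.24 (adjusted p = 0.243) and, at a second probe, by -0.02, so the array gives no check of the deletion where the deleted exons are unknown. All 8 hepatocyte markers on the array were well above background, with summed levels of 10.44 to 10.66 in the controls and 10.44 to 10.74 in the LKO pools.

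No member passed the threshold. Of the 50 tested member probes, 0 had an adjusted p under 0.05 in limma, where 0.0636% of all tested probes did; the adjusted p-values ran from 0.0929 to 0.995. At an unadjusted p under 0.05 there were 4 of 50 member probes (C4b, C6, Klkb1 and a second Pros1 probe), against 21.2% of all tested probes. This gap depended on the setting. With LKO pool 3 from the value table, 6 of 28 complement and 8 of 22 coagulation probes were under 0.05, where 6197 of all 23592 were. Without that pool the counts were 4 and 8, against 7219. With quantile normalization they were 9 and 4, against 5374, and with normexp background correction 2 and 0, against 1568. Each of the 50 was well above background on all 6 arrays and 0 member probes were saturated, so each entered the test through both groups. The 3 probes not tested were 1 further probe each of Masp1, C4bp and Cpb2, each well above background on at most 3 of 6 arrays.

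The differences were small on this scale. Their median size was 0.17 in complement and 0.15 in coagulation, against 0.19 over all tested probes. A difference beyond 1.5-fold was found at 1 of the 50 member probes, that of C6, and at 9.24% of all tested probes. The 95% interval of the difference lay within 1.5-fold either way for 42 of 50 member probes and for 55.4% of all tested probes. Member probes were also brighter, with a median signal of 5.48 against -0.61, and their median SD among the controls was 0.09 in complement and 0.08 in coagulation, against 0.13 over all tested probes. Among the LKO pools it was 0.17 in complement, 0.15 in coagulation and 0.17 over all tested probes. The part of brightness in the size of the differences was not tested.

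**Figure D1:**
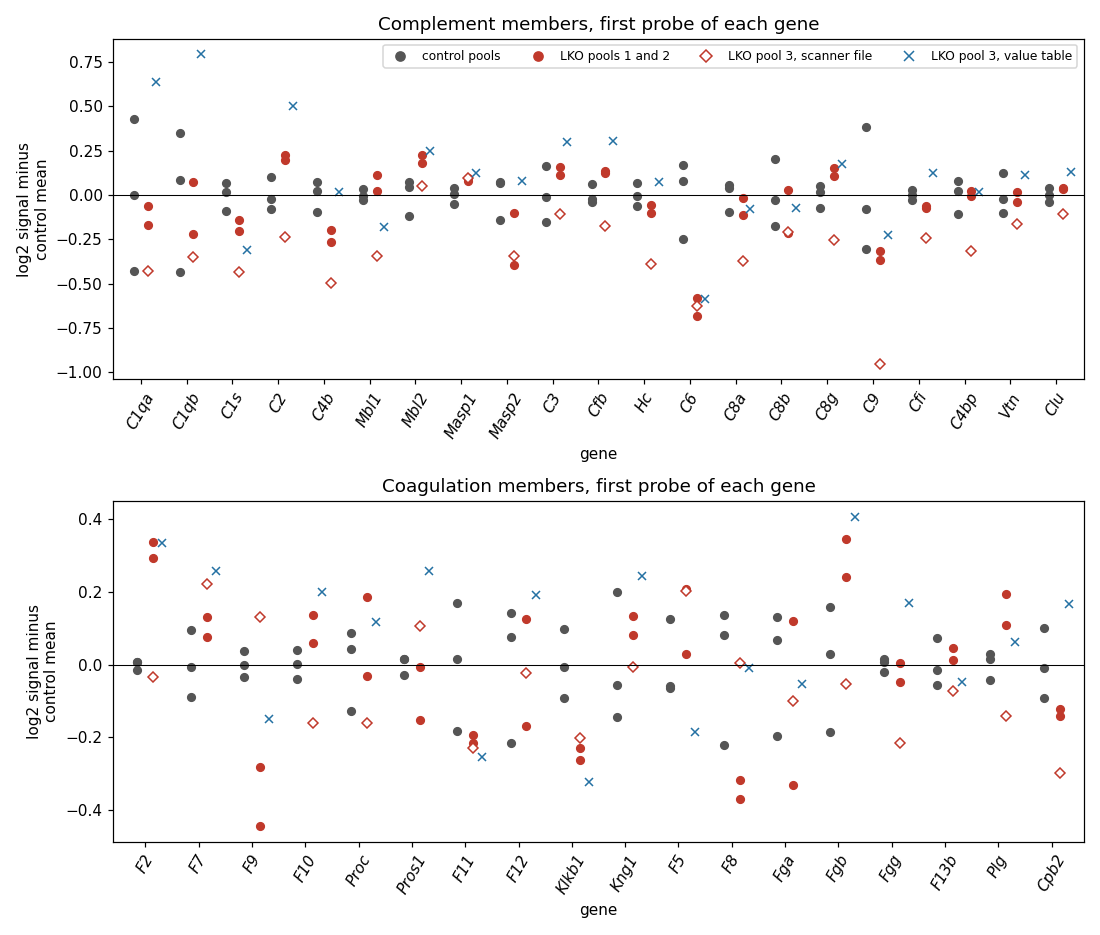
Signal of the first probe of each member in each pool, as log2 signal minus the mean of the 3 control pools, with complement above and coagulation below. Grey circles are control pools, red circles LKO pools 1 and 2, open diamonds LKO pool 3 in the scanner file and blue crosses LKO pool 3 in the value table; C6 stands apart in complement, and LKO pool 3 is often the lowest point in the scanner file and not in the value table.

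In complement 20 of 28 tested probes were lower and 8 higher in the LKO pools, with a median difference of -0.15, where 52.7% of all tested probes were higher. In coagulation 12 of 22 were lower and 10 higher, with a median of 0.00. The size of this lean depended on the processing and on single LKO pools, LKO pool 3 among them. With normexp background correction 3 of 28 complement and 5 of 22 coagulation probes were higher, where 14977 of all 23592 were. Without LKO pool 1, and without LKO pool 2, 5 of 28 complement probes were higher. With LKO pool 3 from the value table the complement split was 14 lower and 14 higher (median 0.00), where 55.7% of all tested probes were higher. Without that pool it was 17 lower and 11 higher (median -0.07), where 53% of all tested probes were higher. For coagulation the split was 7 lower and 15 higher with the value table (median 0.05) and 10 lower and 12 higher without the pool (median 0.05).

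The pool's own values show the same. The scanner value of LKO pool 3 lay below both other LKO pools at 20 of 28 complement probes and 12 of 22 coagulation probes, where 44.9% of all tested probes did. In the value table it lay above both at 20 of 28 complement and 11 of 22 coagulation probes, where 43.7% of all tested probes did. The difference between genotypes changed sign between these sources at 11 of the 50 member probes, and at 14.7% of all tested probes.

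The groups did not overlap at 14 of the 50 member probes, against 28.9% of all tested probes. The LKO pools lay above all controls at 4 member probes (14.9% of all tested probes) and below all controls at 10 (13.9% of all tested probes). The 10 lower probes belonged to C1s, C2, C4b, Masp1, C6, C9, Cfi, F11, Klkb1 and Cpb2, and the 4 higher ones to Masp1 (2 probes), Pros1 and Kng1.

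**Figure D2:**
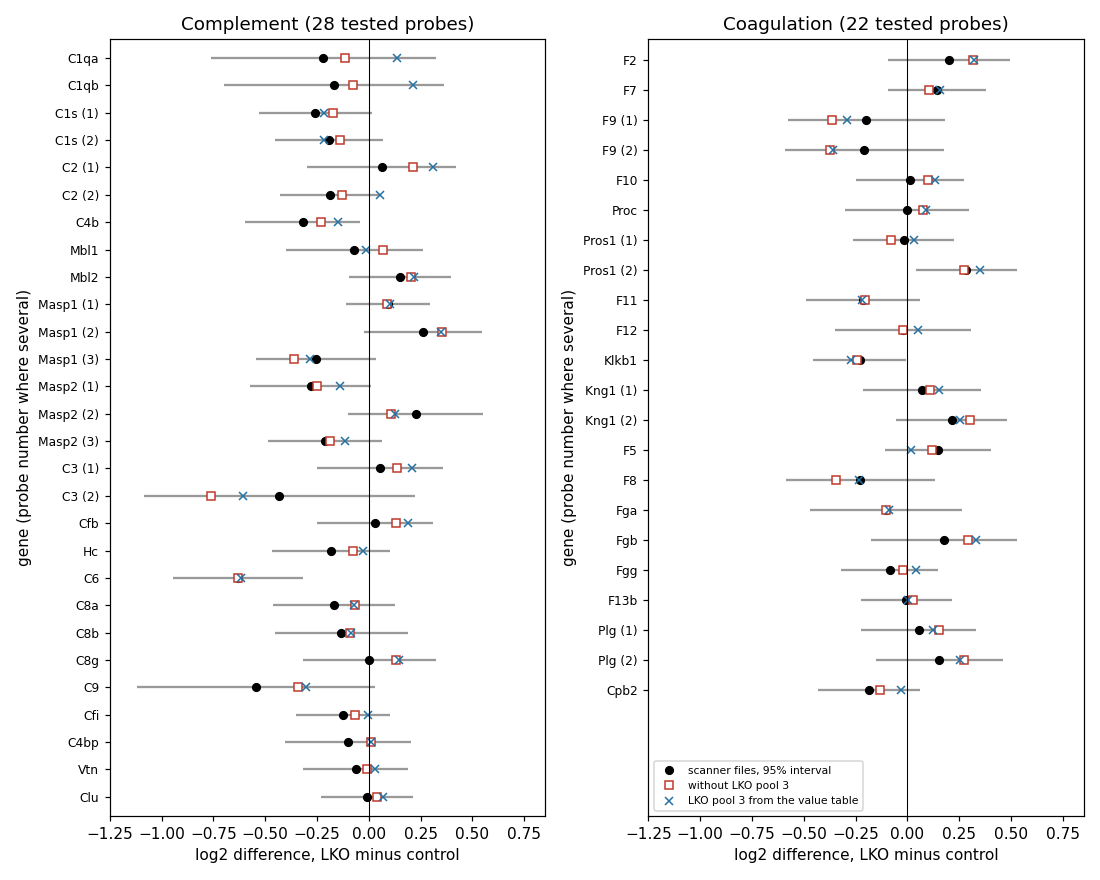
Log2 difference of SIRT1 LKO minus control for the 28 complement and 22 coagulation probes tested, with 95% intervals from limma as grey lines. Black circles use the scanner files, red squares leave out LKO pool 3 and blue crosses take that pool from the value table; the C6 interval is the one that lies farthest from 0, and several complement points move to the right when LKO pool 3 is replaced.

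With the scanner values of all pools, the terminal pathway held the members with the largest differences, C6 and C9. They join the membrane attack complex after C5b and as its pore-forming subunit. The array reads each through 1 probe, and a second C3 probe is shown with them because it carried the only adjusted call of a member probe in any setting. With LKO pool 3 left out, that C3 probe differed by -0.76, more than C6 (-0.63) and C9 (-0.34). Replaced, it was -0.61, against -0.62 and -0.30. All 60 bases are given in lower case, as the scanner files list them.
C6 probe: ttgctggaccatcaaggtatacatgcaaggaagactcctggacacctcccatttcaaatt
C9 probe: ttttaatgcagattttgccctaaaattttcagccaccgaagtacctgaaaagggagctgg
C3 second probe: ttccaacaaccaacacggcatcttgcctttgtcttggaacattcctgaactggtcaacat
On mm7, the build of the scanner files, the C6 probe lies at chr15:4626022-4626081 and the C9 probe at chr15:6310121-6310180, both on the plus strand, and the C3 probe at chr17:55435522-55435679 on the minus strand. The C3 interval is longer than its probe.

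C6 signal was 4.19, 3.77 and 4.10 in control pools 1 to 3 and 3.34, 3.44 and 3.39 in LKO pools 1 to 3. Every LKO pool lay below every control pool. The difference was -0.63 (SE 0.13, 95% interval -0.95 to -0.32, 1.55-fold, lower in 3 of 3 LKO pools), with an adjusted p of 0.0929 that missed the threshold. Taking LKO pool 3 from the value table gave -0.62 (adjusted p = 0.0642) and leaving it out gave -0.63 (adjusted p = 0.0678), so the size did not rest on that pool. With the slide as a random block its adjusted p was 0.372.

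C9 signal was 3.66, 3.20 and 2.97 in the controls and 2.96, 2.90 and 2.32 in the LKO pools. In the scanner files the groups were apart by the narrow gap between control pool 3 and LKO pool 1. In the value table LKO pool 3 was 3.05, above control pool 3. The difference of -0.55 (SE 0.24, adjusted p = 0.253) was -0.30 with the value table and -0.34 with LKO pool 3 left out, over 1.5 times smaller.

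The other terminal members lay closer to 0. Hc, which encodes C5, had signals of 7.26 to 7.39 in the controls and 6.93 to 7.26 in the LKO pools, with a difference of -0.18 (replaced -0.03, left out -0.08). C8a, C8b and C8g, the chains of C8, differed by -0.17, -0.13 and 0.00, with adjusted p of 0.463 to 0.994. For C8a the difference was -0.07 both replaced and left out, for C8b -0.09 in both cases, and for C8g 0.15 replaced and 0.13 left out. All 4 of these genes overlapped between groups. C8a and C8b lay 11.5 kb apart on chromosome 4 by their probes, while C6 and C9 share chromosome 15 at a distance of 1684 kb.

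In the classical pathway C4b, the C4 component of the C3 convertase, was 6.91, 6.80 and 6.97 in the controls and 6.63, 6.70 and 6.40 in the LKO pools. The LKO pools were lower in 3 of 3, by 0.32 on average (difference -0.32, SE 0.12, adjusted p = 0.191). The difference was -0.15 with the value table, where LKO pool 3 stood at 6.91 among the controls. C4b has a near-identical neighbour, C4a, and cross-hybridisation between them was not tested.

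C1s, the protease of the C1 complex that cleaves C4 and C2, differed by -0.26 and -0.19 at its 2 probes. At the first probe the controls were 5.69, 5.79 and 5.84 and the LKO pools 5.64, 5.57 and 5.34, with no overlap (adjusted p = 0.252). C2, which supplies the protease of the same convertase, differed by 0.06 and -0.19 at its 2 probes, opposite in sign. The first became 0.31 replaced and 0.21 left out, and the second 0.05 replaced, with the sign of the first, and -0.13 left out. The second C2 probe had controls of 3.90 to 4.05 and LKO pools of 3.66 to 3.84 in the scanner files, and LKO pool 3 was 4.37 in the value table.

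C1qa and C1qb, chains of the C1q recognition molecule, varied more between the controls than between genotypes. C1qa was 2.56, 2.13 and 1.70 in control pools 1 to 3 and 1.96, 2.07 and 1.70 in the LKO pools (difference -0.22, SE 0.23, adjusted p = 0.608). C1qb was 1.45, 1.18 and 0.66 in the controls and 0.88, 1.17 and 0.75 in the LKO pools (difference -0.17, adjusted p = 0.696). Control pool 1 held the highest scanner value of both genes. With the value table LKO pool 3 was the highest instead, at 2.76 for C1qa and 1.89 for C1qb, and the differences were 0.14 and 0.22; left out, they were -0.11 and -0.07.

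Macrophage markers shared part of the pattern of the C1q chains. All 12 tested Kupffer cell and macrophage markers of a list of 15, such as Clec4f and Cd5l, stood in the same order in the controls (pool 1 highest, pool 3 lowest) as C1qa and C1qb. This order was not particular to macrophages. Of the 11 tested endothelial markers, all but Fcgr2b, Stab1 and Tie1 held it, and its share over all tested probes was not counted. In the scanner files C1qa and C1qb were highest in LKO pool 2 and lowest in LKO pool 3, an order that Lyzs, Marco, Cd163, Vsig4 and Cd14 did not share. The value table put LKO pool 3 above both other LKO pools for all 12 and for both C1q chains. In the scanner files 10 of the 12 markers were lower and 2 higher in the LKO group (median -0.19, 0 past the threshold in limma), and their summed level was 6.17 to 6.89 in the controls and 6.32 to 6.60 in the LKO pools. Whether a pool had fewer macrophages or less C1q RNA in each cannot be told apart in whole liver, and the part of macrophage content in the C1q values was not tested.

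**Figure D3:**
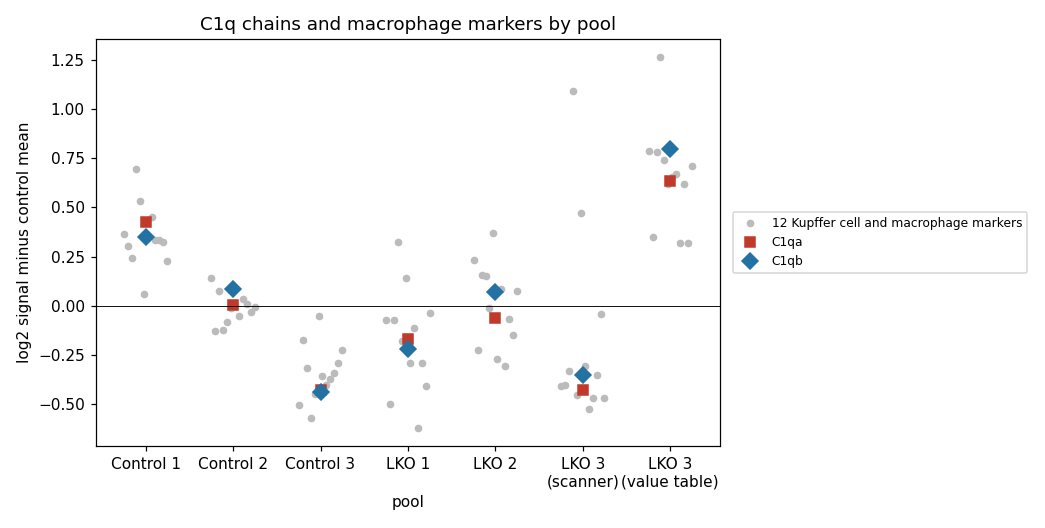
Log2 signal of C1qa (red squares), C1qb (blue diamonds) and 12 Kupffer cell and macrophage markers (grey circles) in each pool, minus the mean of the 3 control pools. LKO pool 3 is drawn from the scanner file and from the value table; C1qa and C1qb lie at 1.70 and 0.75 in the first and at 2.76 and 1.89 in the second before the control mean is subtracted, and the markers shift the same way.

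The lectin pathway uses mannose-binding lectins and their proteases in place of C1. Mbl2 was 7.35, 7.52 and 7.54 in the controls and 7.70, 7.65 and 7.52 in the LKO pools (difference 0.15, adjusted p = 0.427), and Mbl1 differed by -0.07 (replaced -0.01, left out 0.07). Masp1 and Masp2, the proteases, gave different signs at different probes of the same gene.

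At Masp1 the first probe (mm7 chr16:23108101-23108160) was 4.81, 4.76 and 4.85 in the controls and 4.89, 4.90 and 4.90 in the LKO pools, with a difference of 0.09. A second probe (chr16:23127084-23127143) had controls of 3.05 to 3.15 and LKO pools of 3.18 to 3.54, with a difference of 0.26 (adjusted p = 0.265). Another probe (chr16:23110952-23111011) had controls of 0.27 to 0.30 and LKO pools of -0.14 to 0.25, with a difference of -0.26 (adjusted p = 0.277). Each probe kept its groups apart, the first 2 with the LKO pools higher and the other with them lower. Which Masp1 transcript each probe reads was not tested, nor was the difference between the probes.

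At Masp2 the 2 probes for accession NM_010767 differed by -0.28 and -0.21, and the probe for NM_001003893 by 0.23 (adjusted p 0.249, 0.328 and 0.380); together they span 11.3 kb. The contrast shrank to -0.14, -0.12 and 0.13 replaced, and was -0.25, -0.19 and 0.11 left out. The first was 4.98, 5.19 and 5.18 in the controls and 4.72, 5.01 and 4.77 in the LKO pools. All 3 overlapped between groups. The difference between the Masp2 probes was not tested.

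C3, on which the 3 pathways converge, was read by 1 probe in 10 spots and by another in 1 spot. The first was 8.85, 8.99 and 9.16 in the controls and 9.11, 9.15 and 8.89 in the LKO pools (difference 0.05, 95% interval -0.25 to 0.36; replaced 0.21, left out 0.14). Each value is a mean of 10 spots, whose SD within an array was 0.07 to 0.14. The second C3 probe was 1.17, 1.37 and 1.23 in the controls and 0.45, 0.54 and 1.48 in the LKO pools, so that LKO pool 3 lay above the controls and the other LKO pools below them. Its difference was -0.43 (adjusted p = 0.397). Replaced, it was -0.61, and leaving out LKO pool 3 gave -0.76 (adjusted p = 0.0476), the only member call there, where 2.96% of all tested probes passed. Cfb, factor B of the alternative pathway, differed by 0.03 (replaced 0.19, left out 0.13).

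Complement regulators were nearly level. Cfi, the protease that inactivates C3b and C4b, was 7.27, 7.22 and 7.24 in the controls and 7.18, 7.17 and 7.002 in the LKO pools (difference -0.13, adjusted p = 0.473), and its difference was 0.00 replaced and -0.07 left out. C4bp, its cofactor, differed by -0.10 (0.01 replaced and left out). Vtn and Clu, vitronectin and clusterin, which keep the terminal complex from inserting into membranes, differed by -0.06 and -0.01, with 95% intervals of -0.32 to 0.19 and -0.23 to 0.21. Replaced, these were 0.03 and 0.07, the opposite sign, and left out -0.01 and 0.04.

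In coagulation the vitamin K-dependent proteins come first. F2, prothrombin, was 8.30, 8.32 and 8.32 in the controls and 8.61, 8.65 and 8.28 in the LKO pools. LKO pools 1 and 2 lay above all controls and LKO pool 3 below them. The difference was 0.20 (SE 0.12, adjusted p = 0.389), and over 1.5 times as large, 0.32, when LKO pool 3 was left out (adjusted p = 0.0763) or read from the value table (adjusted p = 0.0733), where 1.31% of all tested probes and 0 member probes passed. F7, of the extrinsic pathway, differed by 0.14 (replaced 0.16, left out 0.10), but by -0.18 with normexp background correction. F10, where the pathways meet, differed by 0.01 (replaced 0.13, left out 0.10).

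F9, the factor absent in haemophilia B, had controls of 3.33 to 3.40 and LKO pools of 3.08, 2.92 and 3.50 at its first probe. The second F9 probe had controls of 1.63 to 1.68 and LKO pools of 1.38, 1.19 and 1.78. At both, LKO pools 1 and 2 lay below the controls and LKO pool 3 above them. The differences were -0.20 and -0.21 (adjusted p 0.498 and 0.480), and with LKO pool 3 left out they were -0.36 and -0.37 (adjusted p 0.0775 and 0.0781). In the value table LKO pool 3 lay below the controls at both probes, at 3.22 and 1.34.

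Proc, protein C, averaged 7.59 in both groups (SD 0.11 and 0.17), and differed by 0.09 replaced and 0.08 left out. Pros1, its cofactor protein S, differed by -0.02 at the first probe and by 0.28 at the second. The second Pros1 probe was 0.49, 0.59 and 0.59 in the controls and 0.95, 0.71 and 0.86 in the LKO pools, apart and higher in 3 of 3 (adjusted p = 0.188). The Pros1 probes lay 0.677 kb apart.

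The contact system starts clotting on charged surfaces and releases bradykinin. Klkb1, plasma prekallikrein, was 4.33, 4.14 and 4.23 in the controls and 4.01, 3.97 and 4.03 in the LKO pools, with a difference of -0.23 (SE 0.09, adjusted p = 0.228). F11 was 5.002, 4.65 and 4.85 in the controls and 4.64, 4.62 and 4.61 in the LKO pools, with a difference of -0.21 (adjusted p = 0.329). Both were lower in 3 of 3 LKO pools and stayed so when LKO pool 3 came from the value table (-0.27 and -0.22) or was left out (-0.24 and -0.21). These 2 genes are neighbours, their probes lying 30.9 kb apart on chromosome 8. Among other neighbouring members, at the first probe of each, C8b and C8a differed by -0.13 and -0.17 and C1qa and C1qb by -0.22 and -0.17. F7 and F10 differed by 0.14 and 0.01, Cfb and C2 by 0.03 and 0.06, and Fgg and Fga by -0.09 and -0.10. The sign was opposite for Fga and Fgb (-0.10 and 0.18, 10.7 kb apart) and for C4b and Cfb (-0.32 and 0.03, 137 kb apart). The second C2 probe, at -0.19, also had the opposite sign to Cfb. With normexp background correction Fgb had the sign of Fga, and Cfb that of C4b.

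F12 differed by -0.02 (replaced 0.05). Kng1, the kininogen that carries bradykinin, differed by 0.07 (replaced 0.15, left out 0.11) and 0.21 at its 2 probes. At the second the controls were 6.89, 6.89 and 6.93 and the LKO pools 7.27, 7.14 and 6.94 (adjusted p = 0.315), apart by little at LKO pool 3. Kng1 has a close relative, Kng2, and cross-hybridisation was not tested.

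The cofactors F5 and F8 differed by 0.15 and -0.23. F5 was 3.93, 3.74 and 3.73 in the controls and 4.01, 3.83 and 4.00 in the LKO pools, and its difference was 0.02 with the value table. F8 was -0.13, -0.07 and -0.43 in the controls and -0.58, -0.53 and -0.20 in the LKO pools (adjusted p = 0.417), and its difference was -0.34 left out. The 11 tested endothelial markers, of a list of 12, were higher in 6 and lower in 5, with summed levels of 4.93 to 5.22 in the controls and 4.91 to 5.18 in the LKO pools.

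Fibrinogen is built from the chains of Fga, Fgb and Fgg, which lie together on chromosome 3, their probes 10.7 to 16.9 kb apart. Their promoters are shown because HNF1, C/EBP and the interleukin-6 response are textbook regulators of fibrinogen genes, though not each of every chain. The 3 chains are also needed in equal number. The stretches run over the 150 bases before the RefSeq start (GRCm38.p6), and capitals mark matches on either strand to GTTAAT (HNF1), TTGCNNAA (C/EBP) or CTGGGAA (interleukin-6 response element). No match overlaps another. Fgb held each of these, Fga only GTTAAT and TTGCNNAA, and Fgg only CTGGGAA.
Fga, chr3:83026003-83026152, plus strand: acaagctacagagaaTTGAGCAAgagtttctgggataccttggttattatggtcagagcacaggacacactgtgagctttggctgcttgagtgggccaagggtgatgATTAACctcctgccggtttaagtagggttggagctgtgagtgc
Fgb, chr3:83049864-83050013, minus strand: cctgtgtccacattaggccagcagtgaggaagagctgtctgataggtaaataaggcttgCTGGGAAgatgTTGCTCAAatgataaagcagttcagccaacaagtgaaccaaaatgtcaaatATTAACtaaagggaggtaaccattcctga
Fgg, chr3:83007574-83007723, plus strand: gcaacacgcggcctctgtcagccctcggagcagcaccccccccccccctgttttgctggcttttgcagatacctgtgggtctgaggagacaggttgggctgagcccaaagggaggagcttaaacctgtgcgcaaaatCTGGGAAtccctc
Over 250 bases before the start, 8 of the 29 members with a promoter entry held GTTAAT, 8 held TTGCNNAA and 4 held CTGGGAA, where 6.43%, 9.56% and 9.10% of all 32851 promoters did. A match is a run of letters and no evidence of binding. Members with no entry were C1qa, C2, C4b, Masp1, Cfb, Cfi, Clu, Proc, Kng1 and Plg.

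The fibrinogen chains overlapped between groups. Fga was 5.82, 5.76 and 5.497 in the controls and 5.81, 5.36 and 5.59 in the LKO pools (difference -0.10, adjusted p = 0.728). Fgb was 8.60, 8.82 and 8.94 in the controls and 9.03, 9.13 and 8.73 in the LKO pools (difference 0.18, adjusted p = 0.517), and the difference was 0.33 with the value table and 0.29 with LKO pool 3 left out. Fgg was 8.37, 8.41 and 8.40 in the controls and 8.34, 8.39 and 8.18 in the LKO pools (difference -0.09, 95% interval -0.32 to 0.15). In the scanner files the mean was higher in the LKO pools for Fgb and lower for Fga and Fgg, but Fgg was 0.04 replaced and -0.02 left out. With normexp background correction Fgb was also lower in the LKO pools (-0.12). F13b, the carrier subunit of the factor that crosslinks fibrin, averaged 4.74 and 4.73.

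Of the fibrinolysis members, Plg, plasminogen, differed by 0.05 and 0.15 at its 2 probes (replaced 0.12 and 0.26, left out 0.15 and 0.27). Cpb2, the carboxypeptidase that protects fibrin from plasmin, was 6.65, 6.73 and 6.84 in the controls and 6.62, 6.60 and 6.44 in the LKO pools. The groups were apart, with a difference of -0.19 (adjusted p = 0.339), and it was -0.03 with the value table, where LKO pool 3 stood at 6.91.

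More than 1 tested probe was present for 9 members, and in 5 of them (C2, C3, Masp1, Masp2 and Pros1) the probes differed in sign in the scanner files. With LKO pool 3 replaced, the probes of C2 and of Pros1 had 1 sign each. The probes of C1s, F9, Kng1 and Plg had 1 sign each. No probe of these genes passed the threshold with all pools.

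**Figure D4:**
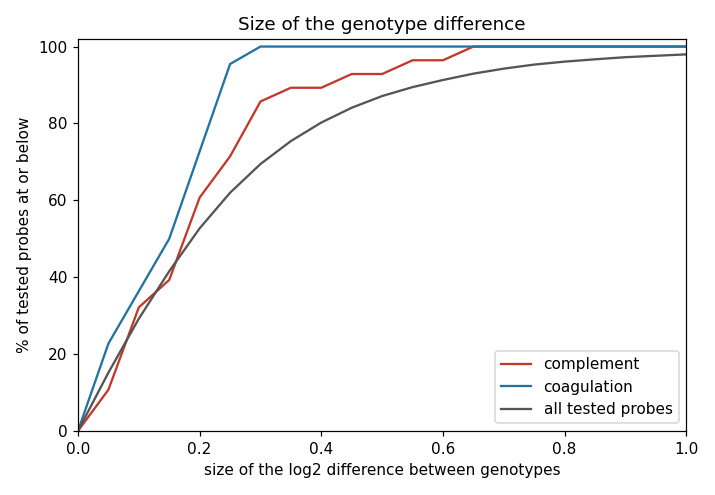
Share of tested probes (vertical axis, %) whose log2 difference between genotypes is at most the size on the horizontal axis, for 28 complement probes, 22 coagulation probes and all 23592 tested probes. The coagulation curve reaches 100% first, the complement curve lies between it and that of all probes above about 0.2, and the last complement probe is C6 at 0.63.

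Other genes of both pathways were read from lists. Of the other complement genes, 20 genes with 28 tested probes were measured, and 0 passed in limma (5 of 28 at an unadjusted p under 0.05, against 21.2% of all tested probes). There were 20 probes lower and 8 higher with a median of -0.09, but 14 lower and 14 higher replaced and 17 lower and 11 higher left out. C1r, the partner protease of C1s, differed by -0.40 at 1 probe (SE 0.09, adjusted p = 0.0984). At another it differed by 0.23 (adjusted p = 0.386), and the groups overlapped. The overlapping C1r probe was the brighter one, with a control mean of 5.46 against 3.23. Cfd, factor D, differed by -3.44 (SE 0.85, adjusted p = 0.114) and exceeded background clearly on only 2 of 3 LKO arrays, and Cd55, which dissociates convertases, by -0.65 (adjusted p = 0.146) at 1 probe and by -0.18 (adjusted p = 0.460) at another, where the groups overlapped. Cfd is also made by adipose tissue, and it was the only tested gene of 5 adipose markers on the array, Lep and Plin being above background on no array.

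Of the other coagulation and fibrinolysis genes, 36 genes with 52 tested probes were measured, and 0 passed in limma (9 of 52 at an unadjusted p under 0.05, against 21.2% of all tested probes). There were 33 probes higher and 19 lower with a median of 0.03, and the median was 0.12 replaced and 0.11 left out. The smallest p-values were those of Mcfd2, Thpo and Lman1. Mcfd2 and Lman1 form the cargo receptor that carries factors V and VIII out of the endoplasmic reticulum. Mcfd2 was 1.90, 1.89 and 1.86 in the controls and 2.35, 2.30 and 2.19 in the LKO pools (difference 0.40, SE 0.09, adjusted p = 0.104), and its other tested probe differed by 0.15 (adjusted p = 0.474) with overlap. Lman1 was 1.67, 1.67 and 1.98 in the controls and 2.50, 2.48 and 2.14 in the LKO pools (difference 0.60, adjusted p = 0.113), and 0.32 at another probe, with overlap. Thpo, the platelet growth factor thrombopoietin, differed by 0.42 (adjusted p = 0.110) at 1 probe, and by 0.14 (adjusted p = 0.75) and -0.05 (adjusted p = 0.913) at its other tested probes, where the groups overlapped. At the probe of smallest p of each of these 3 genes, by which they were picked, the LKO pools lay above all controls. Over all tested probes 14.9% did so. The overlapping probes of Mcfd2 and Lman1 were the brighter ones, with control means of 5.91 and 5.92 against 1.88 and 1.77. With the value table the differences at the picked probes were 0.39, 0.63 and 0.32 for Mcfd2, Lman1 and Thpo.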

How the data were processed

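Scanner files hold Feature Extraction 9.5 intensity with background subtraction and detrending in each array, per the file headers. In the authors' value table each probe has a linear intensity; the series' design text names the Rosetta Resolver error model. Its log2 values correlated with those of the scanner file at 0.982 across probes in LKO pool 3. Flags for control, dim, saturated and outlier spots are other values that the authors deposited.

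Spots marked as controls were removed, outlier spots set missing, spots of 1 probe averaged after log2, and the 75th percentile subtracted. Testing required a probe to exceed background clearly on every array of either group (23592 of 41174) and used limma 3.58.1 in R 4.3.3, genotype only, two-sided. A member's first probe is its brightest tested one. Steps were tested on simulated data. Current names came from RefSeq (GRCm38.p6), which matched 22951 probes; C1s is C1s1 there. Exons are not given.

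Named genes are all members, the 3 smallest p of each other pathway list, and marker lists as counts. Tested platelet (3), lymphocyte (6), stellate (8), cholangiocyte (5) and pancreas (4) markers had medians of 0.15, -0.32, 0.13, 0.19 and -0.15, none past the threshold. Members and lists were chosen with earlier results of these data known. Alternatives are given at the end. Figures used matplotlib 3.10.9.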

Additional observations from a re-analysis of the deposited data

How the results depend on the processing

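Of the 39 first probes of the members, 0 passed in limma under 18 alternatives, and 18 kept their sign in all of them, C6 (-0.76 to -0.55) and C4b among these. The count over all probes was 15, and 0 with normexp, no filter on dim probes, the slide as a random block or the replicate block, 24 with 1 probe per gene or the mean of a gene's probes, 49 with probes above background on all arrays, 91 with an intensity trend and robust variance, 308 with the value table and 5008 unadjusted; it ranged from 0 to 698 when 1 pool was left out (0 without any of the controls, LKO pool 1 or LKO pool 2, and 698 without LKO pool 3). The unadjusted counts were 2 in complement, 2 in coagulation and 14 in the other pathway genes. The complement count was 0 to 1 with 1 pool left out, the 1 being the second C3 probe without LKO pool 3. The median difference was 0.00429 with the value table in complement, and in coagulation -0.12 with normexp, 0.0452 with the value table and -0.0207 to 0.0526 with 1 pool left out. The cause was not tested. Same-numbered pools had deviations correlated at 0.01, -0.04 and -0.09, so the numbers were not taken to pair the pools, and the replicate block called 0 members. With 3 arrays a group, the number of arrays limits the precision.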
